A study of Mus musculus with 66 samples.

Results

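The comparison asked, for each gene, whether newly made RNA and total RNA had changed by different amounts 12 h after activation of Myc. The value is an interaction: the log2 change from 0 min to 12 h in exons of new RNA, minus the same change in exons of total RNA. A positive value means that new RNA rose more, or fell less, than total RNA, and a negative value the reverse. It rests on 12 of the 66 libraries of the study, 3 each of new RNA at 0 min, new RNA at 12 h, total RNA at 0 min and total RNA at 12 h. The cells were 3T9 mouse embryonic fibroblasts with both alleles of c-myc floxed (c-myc flox/flox) that carry a retroviral MycER construct, a fusion of the transcription factor Myc to a steroid-receptor domain that responds to 4-hydroxytamoxifen (OHT). Every library, the 0 min ones included, came from cells with these alleles and the construct. Cells at 12 h had received OHT at 400 nM, and cells at 0 min had received none. New RNA is RNA that took up 4-thiouridine (4sU) during 10 min of labelling at 300 µM and was then biotinylated and caught on streptavidin beads. The study has no time course without OHT, so time in culture and OHT itself cannot be told apart from MycER activity. Nothing in the labels ties the replicates to separate cultures, and the p-values therefore reflect library-to-library spread that could be technical only.

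The level of an RNA is set by how fast it is made and how fast it is lost. A brief pulse of 4sU reads mostly production, whereas total RNA holds what has accumulated, so total RNA of a long-lived message trails its synthesis. Once synthesis and decay have settled, and where the lifetime is unchanged, both kinds of RNA have changed by the same factor. Introns are removed early, so intron values follow precursor RNA in both kinds of library.

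Of 13 fibroblast markers, 9 were in the tables, among them Col1a1, a collagen of connective tissue, at a mean of 167 RPKM in total RNA at 0 min and 113 at 12 h, and Vim, an intermediate filament gene, at 2220 and 1400. Each of the 9 had a lower mean in total RNA at 12 h than at 0 min. Of 20 markers of other cell types, 5 were in the tables. The blood-cell marker Ptprc and the endothelial marker Pecam1 were near 0, at 0.0438 and 0.047 RPKM at 0 min and 0.0961 and 0.0859 at 12 h. Tubb3, a tubulin gene also used as a neural marker, went from 7.31 to 27.8 RPKM between 0 min and 12 h, Nes, an intermediate filament gene of neural progenitors, from 86.8 to 81.4, and Cd68, a macrophage marker, from 2.25 to 2.74. Their part in the results was not tested. Values were rescaled before deposit, so read depth is unknown. The deposited sums over the libraries at 0 min and 12 h were (in units of 1e6) 12.16 to 13.81 for new exons and 47.67 to 51.86 for total exons. Each change is relative to the bulk of genes in its table. A general gain or loss of RNA is not seen in these values, and fewer cells and less RNA per cell cannot be told apart.

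New and total RNA moved together for most genes at 12 h. In the fit over 11463 genes with limma, 3003 genes rose (26.2%) and 3020 fell (26.3%) in new RNA at an adjusted p under 0.05, 52.5% in all. In total RNA 3001 rose (26.2%) and 3161 fell (27.6%), 53.8% in all. Of the 4757 genes called in both, 4736 had the same sign and 21 opposite signs. The interaction was called in 168 genes (1.47%), 85 of them higher in new RNA (0.742%) and 83 lower in new RNA (0.724%), and 1527 genes had an unadjusted p under 0.05. The median standard error of a gene's interaction was 0.14 on the log2 scale, the smallest called size was 0.25, and 24 of the 168 genes had a size above 1. The called genes form 2 bands, above and below the diagonal, in the scatter of new against total change.

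**Figure D1:**
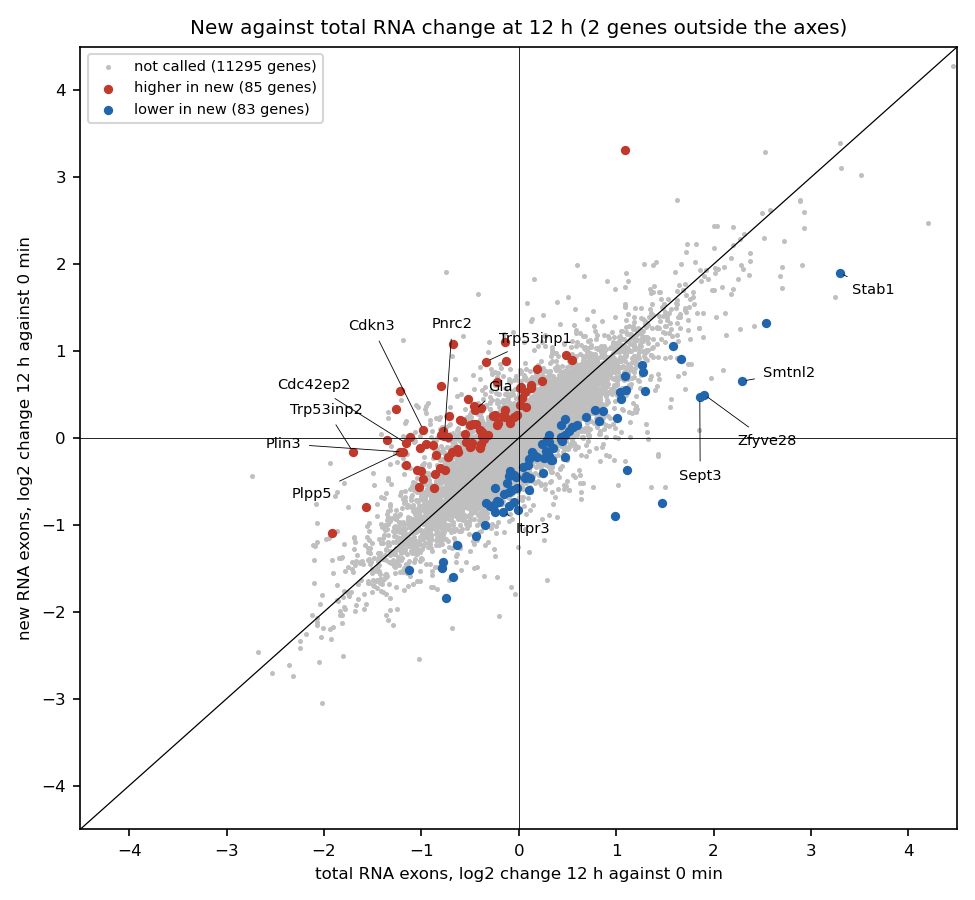
Each point is 1 of the genes tested, with its log2 change from 0 min to 12 h in total RNA exons (horizontal) and in new RNA exons (vertical), and the diagonal marks equal change. Most genes lie along the diagonal, and the 85 genes called higher in new (red) and 83 called lower in new (blue) lie above and below it; labelled genes are those called under every alternative tried.

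The number of calls turned on single libraries. It was 316 without replicate 2 of new RNA at 0 min, and 74 or 78 without replicates 1 or 3 of that group. It was 66 without replicate 2 of new RNA at 12 h, 71 and 86 without replicates 1 and 2 of total RNA at 0 min, and 86 and 61 without replicates 2 and 3 of total RNA at 12 h. With only the 12 libraries of the comparison in the fit it was 31, with 14 genes higher and 17 lower in new RNA. It was 124 with the 10 min libraries as the baseline, and only 69 of these were among the 168 called against 0 min. The other genes of the 168 lost their calls with that baseline, although the same comparison at 10 min called 0 genes higher and 0 lower. The split between higher and lower also moved with scaling, to 47 and 139 with no scaling beyond the deposited values and to 55 and 151 on RPKM plus 0.1. A rule on size, class and gene list gave 57 called genes to describe. Of these, 21 passed with any 1 of the 12 libraries left out, and 13 passed in each of 28 alternatives. The accounts of single genes turn on these 21. Lrp1, described beside them, lost its call without 1 of the libraries.

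The largest class among genes higher in new RNA was a fall in total RNA that new RNA did not share. It held 42 of the 85 genes, with a median total change of -0.66 and a median new change of 0.01. Trp53inp2, which encodes a nuclear protein that moves to the cytoplasm to promote autophagy (chromosome 2, 155206795 to 155215586 on mm9), had the highest positive interaction among the genes named by the rule. Its total exon values were 366.1, 390.6 and 437 at 0 min and 149.2, 98.3 and 121.1 at 12 h, while its new exon values were 234.4, 230.1 and 260.2 at 0 min and 193.5, 234.2 and 223.5 at 12 h. The total RNA groups lay far apart and the new RNA groups overlapped. Total RNA of Trp53inp2 fell by 1.70 ± 0.16 (standard error from the fit, n = 3 per group, limma adjusted p = 8.18e-14), new RNA changed by -0.16 ± 0.16 (adjusted p = 0.42), and the interaction was 1.55 ± 0.22 (adjusted p = 1.58e-05). Each standard error given here rests on 1 spread per gene, shared by all 66 libraries and both kinds of RNA. It is not the spread of the 3 libraries of a group alone.

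Plpp5, a phospholipid phosphatase gene on chromosome 8 (26830533 to 26835359), showed the same form. In total exons it went from 1023, 1009 and 1039 to 492.8, 362.6 and 477.3, and in new exons from 404.8, 400.6 and 391.2 to 349.8, 358 and 360.3. Neither kind of RNA overlapped between 0 min and 12 h, but the shift in new RNA was small, -0.16 ± 0.11 (limma adjusted p = 0.199), beside -1.22 ± 0.11 in total RNA, with an interaction of 1.05 ± 0.15 (adjusted p = 1.58e-05). Cdkn3 encodes a phosphatase that acts on cyclin-dependent kinase CDK2. Total exons of Cdkn3 held 415.4, 399.7 and 396 at 0 min and 201.6, 228 and 185.6 at 12 h, whereas new exon values of 303.1, 314.9 and 254.7 at 0 min overlapped those of 257, 341.4 and 334.8 at 12 h. The interaction of Cdkn3 (chromosome 14, 47380216 to 47391200) was 1.07 ± 0.17 (adjusted p = 7.96e-05).

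Pnrc2 encodes a protein that links the helicase UPF1 to the decapping enzymes in mRNA decay. It was the only called gene of 19 measured factors of nonsense-mediated decay, beside 1.47% of all genes. The median interaction of the 19 was -0.02, and 8 had a value above 0. Of the 4 with an unadjusted p under 0.05 by limma, 1 was higher and 3 were lower in new RNA. Total exons of Pnrc2 held 4289, 4007 and 4177 at 0 min and 2559, 2578 and 2223 at 12 h. Its new exons held 1299, 1602 and 1395 against 1489, 1476 and 1383. Total RNA of Pnrc2 (chromosome 4, 135426833 to 135429765) fell by 0.76 ± 0.08 (limma adjusted p = 3.34e-11) and the new RNA groups overlapped, with an interaction of 0.79 ± 0.12 (adjusted p = 5.81e-05). Cdc42ep2, an effector of the small GTPase Cdc42 that acts on actin, had an interaction of 1.10 ± 0.19 (adjusted p = 0.000461). Plin3, a coat protein of lipid droplets, had 1.03 ± 0.17 (adjusted p = 0.000125), and Dnase1l1, a relative of DNase I, had 1.13 ± 0.21 (adjusted p = 0.00102). Total RNA of the 3 genes changed by -1.16, -1.19 and -1.11, and their new RNA changed by -0.06, -0.16 and 0.02 without passing the test. Dnase1l1 lost its call with only the 12 libraries of the comparison in the fit (adjusted p = 0.0599).

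**Figure D2:**
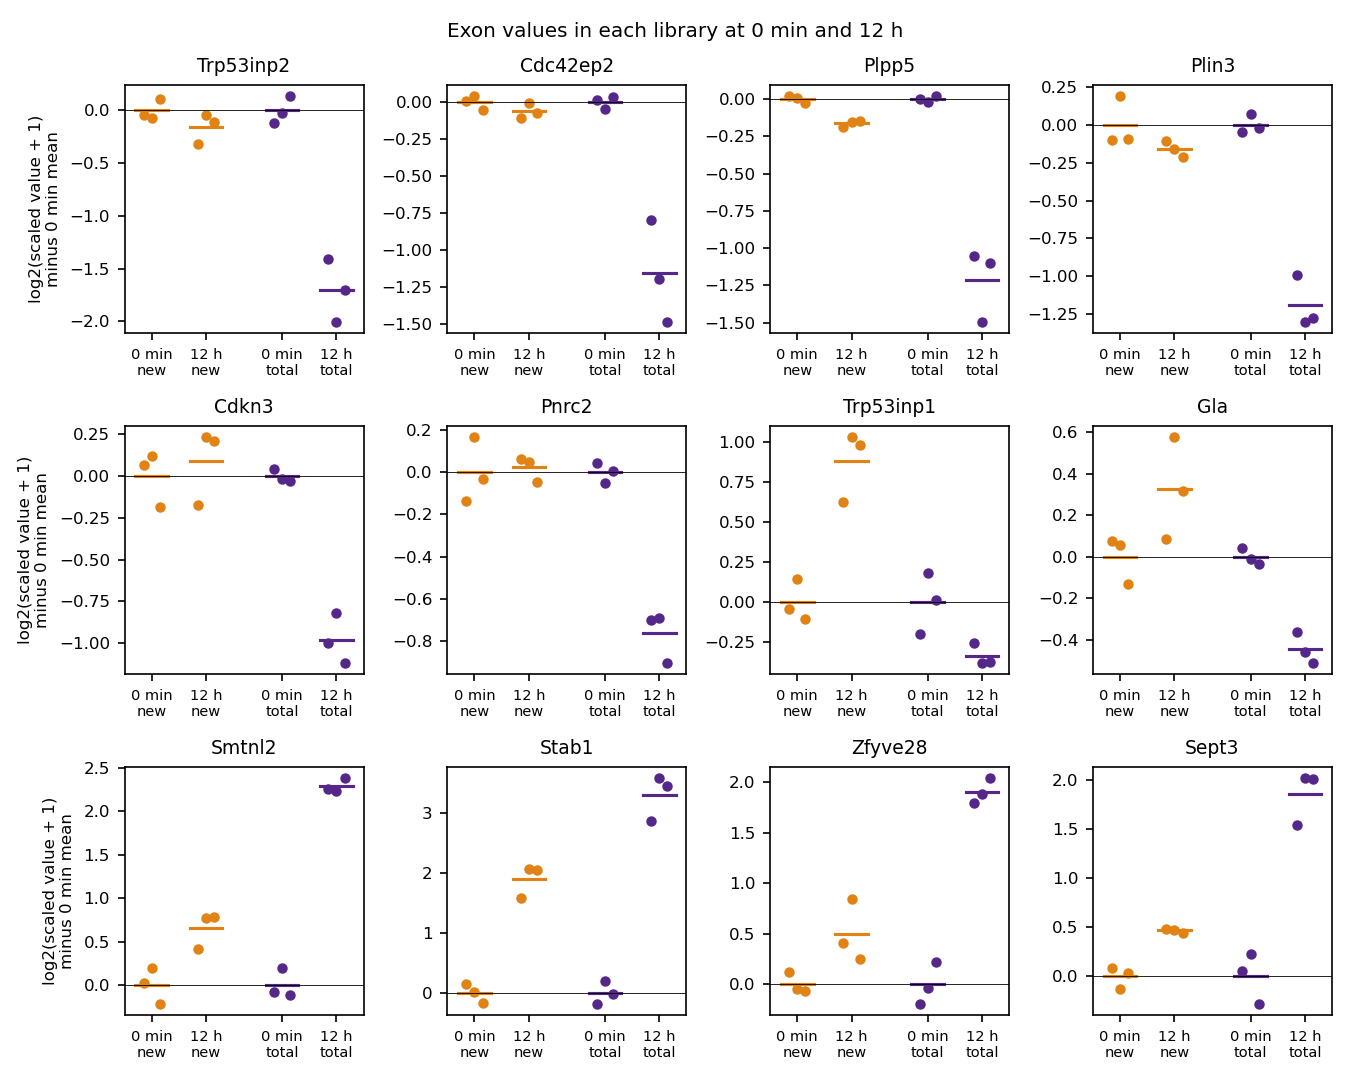
Each point is 1 library (3 per group), as log2(scaled exon value + 1) minus the mean at 0 min of the same kind of RNA, with group means as bars, for 12 genes called under every alternative. In Trp53inp2, Cdc42ep2, Plpp5, Plin3, Cdkn3 and Pnrc2 the 12 h total RNA points lie well below 0 while the new RNA points lie near it, and in Smtnl2, Stab1, Zfyve28 and Sept3 the total RNA points rise further than the new RNA points; the vertical scale differs between panels.

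In 10 genes higher in new RNA, the 2 kinds of RNA moved in opposite directions, new RNA up and total RNA down. Among them was Trp53inp1, a stress gene induced by p53 (chromosome 4, 11083578 to 11101526). Its new exon values were 236.3, 269.5 and 227 at 0 min and 376, 499.6 and 482.8 at 12 h, and its total exon values were 211.5, 275.9 and 244.8 against 203.6, 186.7 and 187.5. The new RNA groups did not overlap and neither did the total RNA groups. New RNA of Trp53inp1 rose by 0.88 ± 0.14 (limma adjusted p = 2.79e-07), total RNA fell by 0.33 ± 0.14 (adjusted p = 0.0375), and the interaction was 1.21 ± 0.20 (adjusted p = 0.000125). Gla encodes the lysosomal alpha-galactosidase (chromosome X, 131122688 to 131135664). Its new RNA rose by 0.33 ± 0.09 and its total RNA fell by 0.44 ± 0.09, with an interaction of 0.77 ± 0.13 (adjusted p = 0.00038). Rmnd5b, a subunit of an E3 ubiquitin ligase, rose by 0.35 ± 0.11 in new RNA and fell by 0.39 ± 0.11 in total RNA (interaction 0.73 ± 0.16, adjusted p = 0.00638). The annotation places Nhp2 over Rmnd5b on the other strand, and whether counting used strand is not given in the sources used here. With the 10 min libraries as the baseline, the interaction of Rmnd5b was 0.47 with an adjusted p of 0.142.

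A rise in new RNA with no called change in total RNA described 18 genes, with a median new change of 0.50 and a median total change near 0. Hacd4, an enzyme of very long chain fatty acid synthesis, had new exon values of 124.9, 147.3 and 138.4 at 0 min and 226.8, 283.1 and 251.1 at 12 h. In total RNA they were 142, 180.6 and 133.6 against 144.1, 127.7 and 142.9. The new RNA groups of Hacd4 were well apart and the total RNA groups overlapped (interaction 1.01 ± 0.22, limma adjusted p = 0.00618). BC057079 lies over Hacd4 on the other strand. Prmt6, an arginine methyltransferase that marks histones, rose by 0.80 ± 0.09 in new RNA beside 0.18 ± 0.09 in total RNA (adjusted p of the interaction = 0.00348). Cebpzos, which lies on the strand opposite Cebpz, so that without strand their reads cannot be told apart, rose by 0.64 ± 0.12 in new RNA beside -0.22 ± 0.12 in total RNA (adjusted p = 0.00281). With only the 12 libraries of the comparison in the fit, the adjusted p was 0.0509 for Hacd4, 0.0599 for Prmt6 and 0.0599 for Cebpzos, and with the 10 min baseline that of Prmt6 was 0.345.

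Genes lower in new RNA fell into a more even set of classes. In 19 of the 83 genes both kinds of RNA rose, and total RNA rose more, with medians of 1.26 in total and 0.54 in new RNA. Smtnl2, a relative of the muscle protein smoothelin (chromosome 11, 72202666 to 72225215), was among them. Total exons of Smtnl2 held 60.9, 74.0 and 59.5 at 0 min and 311.4, 307.6 and 341.3 at 12 h, and its new exon values were 167.6, 188.7 and 142.1 against 220.8, 282 and 283.7. Both kinds of RNA were higher in every 12 h library than in any 0 min library. Total RNA of Smtnl2 rose by 2.29 ± 0.15 (limma adjusted p = 1.96e-19) and new RNA by 0.66 ± 0.15 (adjusted p = 0.000172), an interaction of -1.64 ± 0.21 (adjusted p = 2.23e-06).

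Stab1, a scavenger receptor best known from macrophages and liver endothelium (chromosome 14, 31952199 to 31981827), had total exon values of 64.7, 84.2 and 72.2 at 0 min and 539.2, 888.3 and 805.7 at 12 h. Its new exon values were 77.5, 70.6 and 61.8 against 210.7, 295.6 and 291.9. No group of Stab1 overlapped its control, and total RNA rose by 3.30 ± 0.17 beside 1.90 ± 0.17 in new RNA, an interaction of -1.39 ± 0.24 (limma adjusted p = 0.000255). Nt5dc2 lies over Stab1 on the other strand. Sept3, a septin GTPase known mostly from neurons (chromosome 15, 82105365 to 82124872), had total exon values of 49.3, 55.8 and 39.0 against 140.1, 196.5 and 194.5, and new exon values of 78.5, 67.6 and 75.7 against 103.8, 103 and 101. Both kinds were higher in each 12 h library, and the interaction of Sept3 was -1.39 ± 0.23 (adjusted p = 0.000186). Zfyve28, a FYVE domain protein of endosomes, had an interaction of -1.41 ± 0.26 (adjusted p = 0.00103), with a total rise of 1.91 ± 0.19 and a new rise of 0.50 ± 0.19. Ifi30, the lysosomal thiol reductase GILT, rose by 2.54 ± 0.15 in total RNA and 1.32 ± 0.15 in new RNA (interaction -1.22 ± 0.21, adjusted p = 0.00038). The adjusted p of Ifi30 was 0.0583 with only the 12 libraries of the comparison in the fit.

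In 20 further genes total RNA rose while the new RNA change was not called. Nomo1, a membrane protein of the endoplasmic reticulum translocon, had total exon values of 9007, 9499 and 9883 at 0 min and 12890, 15190 and 14950 at 12 h. Its new exon values were 2485, 2249 and 2461 against 2644, 2518 and 2816, which also lay above the control but by little. The interaction of Nomo1 was -0.45 ± 0.10 (limma adjusted p = 0.0071), with 0.075 on only the 12 libraries and 0.178 with the 10 min baseline.

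The remaining classes of genes lower in new RNA had a larger fall, or a fall only, in new RNA. In 23 genes new RNA fell and total RNA was not called, with medians of -0.57 and -0.05. In 12 both fell and new RNA fell more, with medians of -1.18 and -0.54. Itpr3, an inositol trisphosphate receptor that releases calcium from stores (chromosome 17, 27194249 to 27259168), had new exon values of 2924, 2512 and 2918 at 0 min and 1626, 1350 and 1659 at 12 h. In total RNA they were 6096, 7210 and 7932 against 5970, 6291 and 6611, and these groups overlapped while the new RNA groups did not. New RNA of Itpr3 fell by 0.85 ± 0.09 (limma adjusted p = 9.9e-12) and total RNA changed by -0.16 ± 0.09 (adjusted p = 0.124), with an interaction of -0.69 ± 0.13 (adjusted p = 0.00102). The annotation places 1700062I23Rik over Itpr3 on the other strand. Lrp1, an endocytic receptor, fell by 1.60 ± 0.14 in new RNA and by 0.67 ± 0.14 in total RNA (interaction -0.93 ± 0.20, adjusted p = 0.00579, and 0.0558 without replicate 2 of new RNA at 12 h).

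In 9 genes new RNA fell and total RNA rose. Xrcc3, a DNA repair gene (chromosome 12, 113041403 to 113052084), had new exon values of 417.4, 409.7 and 476.1 at 0 min and 332.6, 344.5 and 309.3 at 12 h, and total exon values of 487.8, 470.7 and 484.8 against 568.4, 565 and 584.5. Neither kind overlapped between the times, and they moved in opposite directions. New RNA of Xrcc3 fell by 0.40 ± 0.08, total RNA rose by 0.25 ± 0.08, and the interaction was -0.65 ± 0.12 (limma adjusted p = 0.000922, and 0.151 with the 10 min baseline). Klc1 lies over Xrcc3 on the other strand.

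Intron values, which the comparison did not use, sorted some of these genes differently. In Cdc42ep2, Plin3 and Dnase1l1, new RNA was level in exons but fell in introns. New introns of Plin3 went from 115.7, 123.7 and 127.1 to 76.5, 57.7 and 50.2, a fall that passed (limma adjusted p = 0.000182), beside a log2 change of -1.19 in total exons. New introns of Plin3, Dnase1l1 and Cdc42ep2 fell by 1.00, 0.92 and 1.04 on the log2 scale, and their total introns by 1.00, 1.24 and 1.05. In each of these genes the intron groups at 0 min and 12 h did not overlap in new RNA. Cdc42ep2 has a single exon block of 1435 bases and no intron in the GENCODE M1 annotation, so what its deposited intron values cover is not known here.

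Among the rising genes the same held for Smtnl2, Sept3 and Zfyve28. New introns of Smtnl2 were 10.1, 4.95 and 4.13 at 0 min and 168.7, 170.1 and 190.6 at 12 h, so they went from near the lowest values in the table to well above them. The log2 change in new introns was 4.67 for Smtnl2, 2.32 for Sept3 and 2.30 for Zfyve28, beside 0.66, 0.47 and 0.50 in new exons and 2.29, 1.86 and 1.91 in total exons. The total intron values of Smtnl2 at 0 min, 1.02, 0 and 0, were too low for its fold to be read, and those of Sept3 and Zfyve28 rose by 2.58 and 2.56. For Cdc42ep2, Plin3, Dnase1l1, Sept3 and Zfyve28 the exon values of new RNA stood apart from the other 3 measures, and for Smtnl2 total exons lay between new exons and the introns, as the plot of exon and intron changes shows.

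Other genes had introns that moved with new exons instead. New introns of Cdkn3 rose slightly, from 616.6, 561.2 and 620 to 723, 716.9 and 724.1 (log2 change 0.27, limma adjusted p = 0.0413), and total introns changed by -0.09, while total exons fell by 0.98. In Trp53inp1 new and total introns rose by 0.54 and 0.49, opposite to its total exons. In Rmnd5b they rose by 0.30 and 0.31, and in Hacd4 by 0.81 and 0.68. New introns of Itpr3 fell by 0.98 and total introns by 0.73, beside -0.16 in total exons. In Ifi30 new and total introns rose by 0.82 and 0.62, beside a rise of 2.54 in total exons. Plpp5, Pnrc2 and Nomo1 had neither form, since their introns parted between the 2 kinds of RNA in the direction of the exons. New introns changed by -0.005, 0.15 and 0.22, and total introns by -0.57, -0.41 and 0.55. The intron difference was not called in any of them (limma adjusted p = 0.0655, 0.199 and 0.144). Gla, Prmt6 and Cebpzos were not sorted. Their new introns changed by 0.04, 0.94 and 0.61, and their total introns by -0.21, 0.34 and 0.31. Introns of Trp53inp2, Stab1 and Xrcc3 are given in the plot alone.

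**Figure D3:**
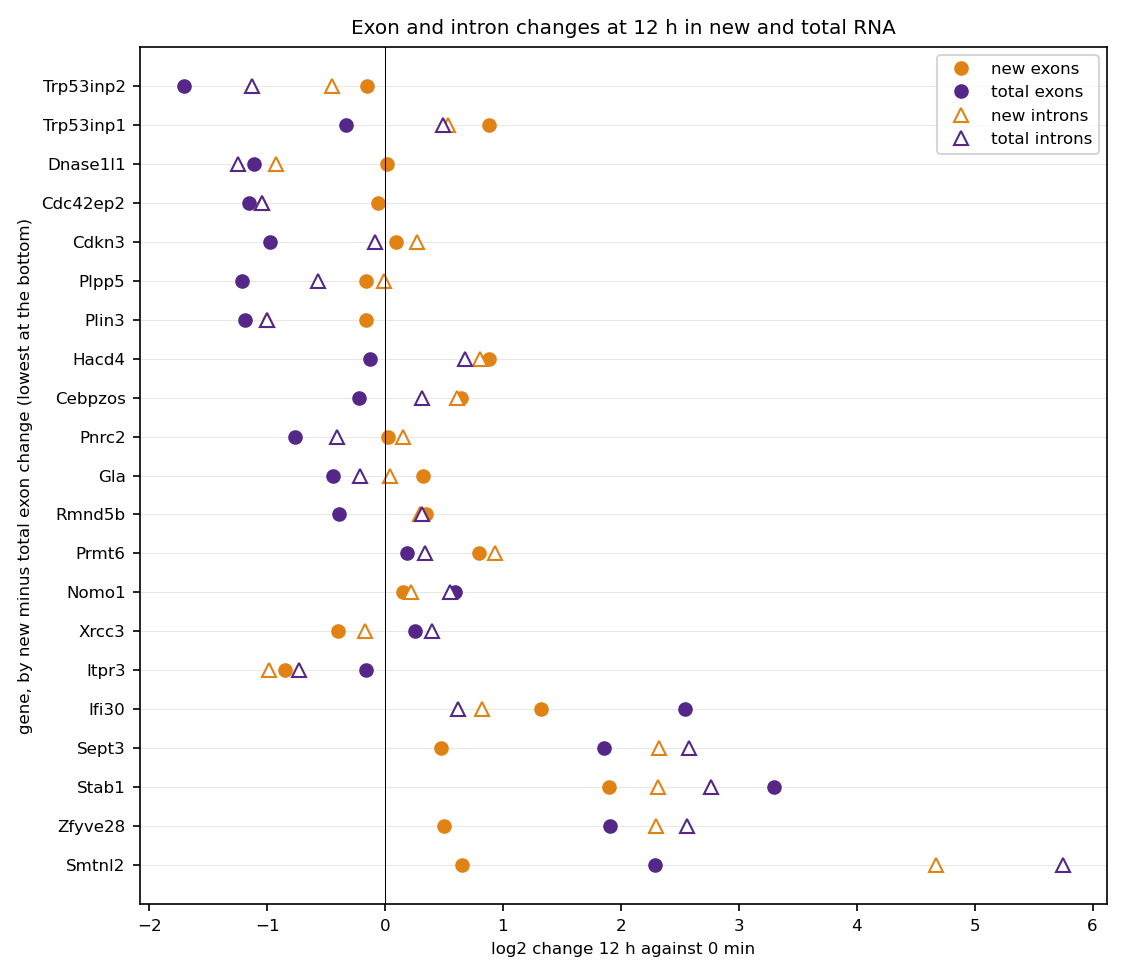
Log2 change from 0 min to 12 h in new (orange) and total (purple) RNA, for exons (circles) and introns (triangles), in the 21 genes whose call held with any 1 library left out, ordered by new minus total exon change. In Cdc42ep2, Plin3, Dnase1l1, Sept3 and Zfyve28 the new exon circle lies away from the other 3 marks, and in Cdkn3, Trp53inp1, Rmnd5b, Hacd4, Itpr3 and Ifi30 the total exon circle does; the intron marks of Smtnl2 rest on 0 min values near 0, and those of Cdc42ep2 on a gene annotated with no intron.

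Over whole classes, intron change in new RNA was nearer to the new exon change than to the total exon change in most called genes. It was nearer to the total exon change in 19 of the 85 genes higher in new RNA and in 13 of the 83 lower in new RNA, or 22.4% and 15.7%, beside 35.9% of all genes. In the 42 genes where only total RNA fell, 13 had a called fall of new introns and 5 a called rise (25.4% and 26.6% of the genes tested in introns, and 52% in either direction). In the 23 genes where only new RNA fell, new introns fell in 22. New introns share their libraries with new exons, so these are descriptions and not a separate test.

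The difference between new and total RNA was also computed on introns, where it was called in 20 of 11467 genes (0.174%), 16 higher (0.14%) and 4 lower (0.0349%) in new RNA. Of the genes called in exons, 2 of the 85 were called higher in new introns and 1 of the 83 was called lower. The intron difference had the same sign as the exon difference in 63 of 85 and 70 of 83 genes, or 74.1% and 84.3%, beside 63.4% of all genes. The median intron difference was 0.13 and -0.21 in the 2 sets. The count of 20 was 241 without replicate 1 of new RNA at 12 h, 102 without replicate 2 of new RNA at 0 min, 0 without replicate 3 of either group or replicate 1 of total RNA at 0 min, and 2 to 7 without replicate 2 of new RNA at 12 h, replicate 3 of total RNA at 12 h or replicate 2 of total RNA at 0 min. By limma 1507 genes had an unadjusted p under 0.05.

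A measure that uses no labelled library is the exon change minus the intron change within total RNA, which compares accumulated message with its own precursor. It was higher at 12 h in 259 genes (2.26%) and lower in 249 (2.18%), 508 in all (4.44%). Among the 85 genes higher in new RNA it was lower in 27 and higher in 2, and among the 83 genes lower in new RNA it was higher in 17 and lower in 1. It shares total exon values with the interaction, which pulls the signs this way. Cdkn3 (-0.89, limma adjusted p = 0.000759), Plpp5 (-0.65, 0.000138), Trp53inp1 (-0.82, 0.00363), Rmnd5b (-0.70, 0.000249) and Hacd4 (-0.80, 0.0159) were lower. Ifi30 (1.93, 3.41e-07), Itpr3 (0.56, 0.00813) and Lrp1 (0.96, 0.0011) were higher. In Cdc42ep2, Plin3 and Dnase1l1 the measure was -0.12, -0.20 and 0.11 and was not called. That of Smtnl2 is not read, since its total introns were at 1.02, 0 and 0 at 0 min. The 508 calls of this measure became 246, 257, 258 and 219 without replicates 1 and 2 of total RNA at 0 min and replicates 2 and 3 at 12 h.

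At 8 h the same comparison called 26 genes (0.227%), 16 higher (0.14%) and 10 lower (0.0872%) in new RNA. At 16 h it called 38 genes (0.332%), 21 higher (0.183%) and 17 lower (0.148%). These comparisons share their 0 min libraries with the one at 12 h, so their values are given side by side. The 85 genes higher in new RNA at 12 h had a median interaction of 0.57 at 12 h, 0.36 at 8 h and 0.38 at 16 h, and 13 and 14 of them were called at 8 h and 16 h. The 83 lower genes had medians of -0.51, -0.26 and -0.29, and 9 and 11 were called. The genes were chosen at 12 h, so a larger median at 12 h follows from the choice. The count at 8 h was 9 without replicate 2 of new RNA at 8 h and 15 without replicate 1 of total RNA at 0 min. That at 16 h was 24 without replicate 1 of new RNA at 0 min, 19 without replicate 2 of total RNA at 0 min, 18 and 20 without replicates 1 and 2 of new RNA at 16 h and 13 without replicate 3 of total RNA at 16 h.

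The test of the difference between times, which uses no 0 min library, called 1 gene between 12 h and 8 h (0.00872%) and 0 between 16 h and 12 h (0%). By limma 603 and 455 genes (5.26% and 3.97%) had an unadjusted p under 0.05 in these tests, beside 13.3% in the interaction at 12 h. None of the 168 genes was called in either. The higher number of genes at 12 h than at 8 h and 16 h is therefore a difference in counts, and no gene of the 168 was shown to differ between the times.

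Over the whole time course the leading genes reached the gap at 12 h in different ways. Total RNA of Trp53inp2 changed by -0.38 at 2 h, -0.80 at 4 h, -1.53 at 8 h, -1.70 at 12 h and -1.75 at 16 h, while new RNA lay between -0.46 and -0.16 from 4 h to 16 h and was called lower at 4 h, 8 h and 16 h (limma adjusted p = 0.0291, 0.0254 and 0.0129). Plpp5 and Cdkn3 went down as slowly in total RNA, to -0.96 and -0.78 at 8 h and -1.14 and -0.96 at 16 h. Pnrc2 was earlier: its total RNA changed by -0.69 at 1.5 h and by -0.93 at 8 h, and was at -0.52 at 16 h. Its interaction was called at 1.5 h, 2 h, 4 h, 8 h and 12 h, and at 16 h was 0.45 (limma adjusted p = 0.0891).

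New RNA of Trp53inp1 was at 0.87 by 30 min and between 0.71 and 0.88 from 1 h to 16 h, while total RNA lay between -0.33 and 0.03 over the same times. Its interaction was called at each time from 1 h on. Total RNA of Smtnl2 climbed from 0.89 at 1 h to 2.30 at 8 h and 2.29 at 12 h, and its new RNA lay between 0.31 and 0.66 from 1 h on. Stab1 moved together in both kinds until 2 h, with 1.47 in new and 1.90 in total RNA, and then parted as total RNA went to 3.30 at 12 h. The panels by time show these courses.

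**Figure D4:**
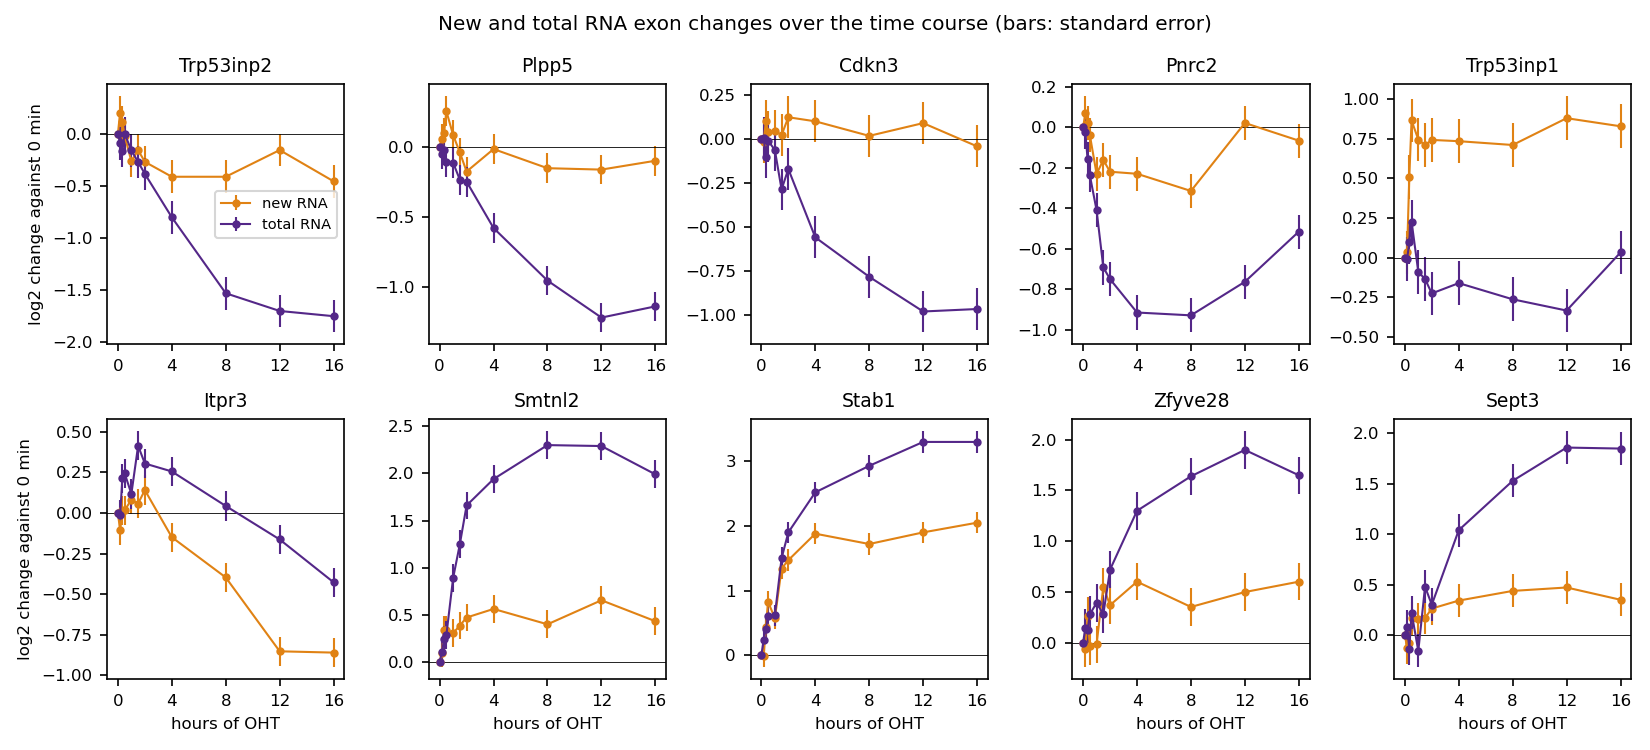
Log2 change against 0 min in new (orange) and total (purple) RNA exons over 16 h of OHT, with standard errors from the fit and 3 libraries per point, for 10 genes named in the text. Total RNA of Trp53inp2, Plpp5 and Cdkn3 goes down to about 12 h while new RNA changes less, and total RNA of Smtnl2, Stab1, Zfyve28 and Sept3 climbs past new RNA; the vertical scale differs between panels.

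Gene groups showed small shifts and few calls. Over all genes tested, 1.47% were called in the interaction (0.742% higher and 0.724% lower in new RNA), 13.3% had an unadjusted p under 0.05, and 5809 of 11463 had a value above 0. Of 74 cytosolic ribosomal protein genes, 71 had a higher value in new RNA, with a median interaction of 0.17 beside a value near 0 over all genes, made of a median new change of 0.02 and a median total change of -0.14. Only Rps15a was called, and 28 had an unadjusted p under 0.05, 27 of them higher in new RNA. In the respiratory chain, 68 of 73 genes had a value above 0, with a median of 0.13, and Ndufa10 was called. The shifts of ribosomal protein and respiratory chain genes were not particular to 12 h. The median of the ribosomal protein genes was 0.09 at 8 h and 0.18 at 16 h, and that of the respiratory chain 0.08 and 0.16. The mitochondrial ribosome had a median of 0.10 and Mrpl13 as its called member. Of the 5 measured host genes of small nucleolar RNAs, all 5 had a value above 0 and Gas5 and Snhg6 were called. The median of these host genes was 0.32 at 12 h, but 0.05 at 8 h and -0.01 at 16 h. Ribosomal protein messages and many of these host genes are terminal oligopyrimidine messages, whose translation follows growth signals.

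Groups with genes lower in new RNA included the extracellular matrix, with a median of -0.15 over 49 genes (new -0.64, total -0.41), 11 of them at an unadjusted p under 0.05 and all 11 lower in new RNA, and Col5a1 called. Actomyosin and SRF target genes had a median of -0.11, with new RNA falling in 32 and total RNA in 30 of 33 genes and none called by limma in the interaction, 9 having an unadjusted p under 0.05. Over all genes 26.3% fell in new and 27.6% in total RNA. Amino acid transporters had 2 called lower of 24, Slc7a1 and Slc6a6, beside 0.724% of all genes. The ribosome biogenesis genes, a core Myc response, rose in 41 of 45 members in each kind of RNA, beside 26.2% of all genes in each. Their median was 0.50 in new RNA and 0.50 in total RNA, and the interaction was centred near 0, with Nat10 as the called member.

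The interaction of the mRNA decay machinery was centred near 0, with a median of -0.01 over 54 genes and none called by limma. Only 3 had an unadjusted p under 0.05, beside 13.3% of all genes. In new RNA 21 of the 54 rose and 7 fell, with a median of 0.14. In total RNA 27 rose and 7 fell, with a median of 0.17. Over all genes 26.2% rose in each kind, and 26.3% fell in new and 27.6% in total RNA. Among 40 regulators of mRNA stability, 3 were called lower in new RNA, Fto, Igf2bp1 and Tnrc6c, beside 0.724% of all genes. The list of p53 targets and CDK inhibitors had a median of 0.11. Of its 32 measured genes 2 were called higher, Trp53inp1 and Trp53inp2, beside 0.742% of all genes. Whether Trp53inp2 responds to p53 was not tested. Apart from the genes among the 21 above, the calls of list members were fragile: leaving out 1 library ended the call of Rps15a and Gas5 in 10 of 12 cases, of Ndufa10, Nat10, Fto and Igf2bp1 in 8, of Slc7a1 in 7, of Col5a1 and Slc6a6 in 6, of Tnrc6c in 5, of Snhg6 in 4 and of Mrpl13 in 2. Lists are described by counts and medians alone and were not tested.

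Myc itself and 6 Myc-responsive or cell-cycle genes were named whatever their values, and none of the 7 passed in the interaction (limma adjusted p between 0.265 and 0.981). Myc fell by 1.08 ± 0.19 in new and by 1.10 ± 0.19 in total RNA, with an interaction of 0.02 ± 0.27. Odc1, the first enzyme of polyamine synthesis, rose by 0.69 and 0.62, Ncl, which encodes nucleolin, by 0.71 and 0.62, and the cyclin gene Ccnd2 by 0.84 and 0.95. Cad, an enzyme of pyrimidine synthesis, rose by 0.60 in new and 0.91 in total RNA, with an interaction of -0.31 ± 0.13. Cdk4, a kinase of the G1 phase, changed by 0.01 in new RNA (limma adjusted p = 0.937) and fell by 0.21 in total RNA (adjusted p = 0.0104), with an interaction of 0.22 ± 0.10. The CDK inhibitor gene Cdkn1a fell by 0.92 and 1.14, with an interaction of 0.22 ± 0.48. A value that did not pass does not show equal change in the 2 kinds of RNA.

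Genes called lower in new RNA differed from all genes in base composition and length, and those called higher were nearer to all genes. The 83 genes lower in new RNA had a median exon GC content of 54.5%, 6700 exon bases and 21 exon blocks, beside 49.8%, 3850 and 10 over all genes. The 85 genes higher in new RNA had 48.3%, 3870 and 9. Across 5 equal bins of all genes by exon GC content, the median interaction at 12 h went from 0.07 in the lowest to -0.10 in the highest, whereas at 8 h it went from 0.01 to -0.02 and at 16 h from 0.01 to near 0. Across 5 bins by exon length it went from 0.06 in the shortest to -0.04 in the longest at 12 h. At 8 h it went from 0.04 to -0.02 and at 16 h from 0.06 to -0.03. The medians of gene lists were not adjusted for GC content or length. The tilt of a single library (its median deviation in the highest minus the lowest GC bin) was -0.169, -0.199 and -0.208 in new RNA at 12 h, and 0.061, -0.173 and 0.106 in new RNA at 0 min. In total RNA it lay between -0.0774 and 0.0288 in the libraries of both times. The 12 h libraries of new RNA were thus all tilted the same way and 1 of the 3 control libraries shared their tilt.

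After an adjustment of each library for exon GC content and length, 126 genes were called, 84 higher and 42 lower in new RNA. Of these, 66 and 38 were also called without it. The median of the higher set was 0.57 with and without the adjustment, and that of the lower set went from -0.51 to -0.39. All 21 genes whose calls held without any 1 library were called after it: Trp53inp2 had 1.62, Plpp5 1.03, Trp53inp1 1.19, Smtnl2 -1.62, Stab1 -1.23 and Itpr3 -0.53. Among the list members named above, those called lower in new RNA lost their calls under the adjustment. These were Col5a1, Slc7a1, Slc6a6, Nat10, Fto, Igf2bp1 and Tnrc6c (limma adjusted p from 0.0599 to 0.137). Gas5, called higher, lost its call too (0.15), while Rps15a, Ndufa10, Mrpl13 and Snhg6 kept theirs. Whether GC content or length accounts for these losses was not tested.

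**Figure D5:**
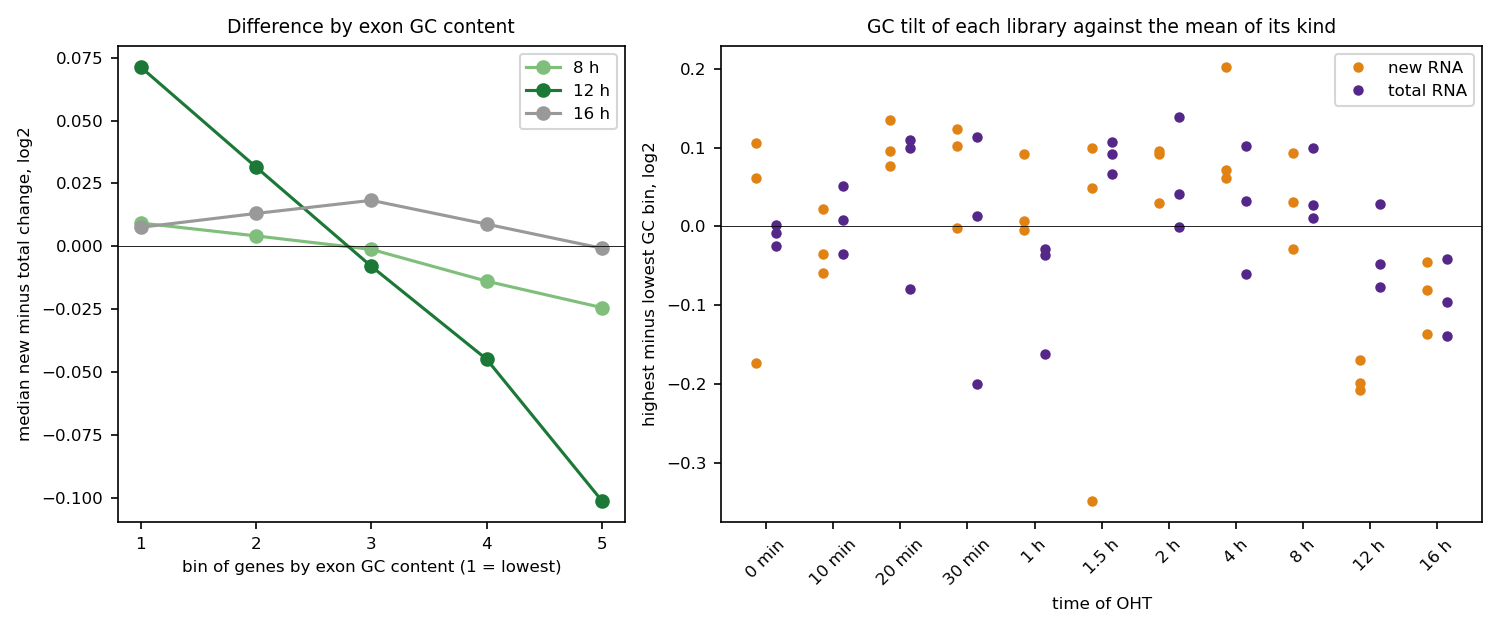
Left, median new minus total change (log2) in 5 equal bins of genes by exon GC content, at 8 h, 12 h and 16 h; right, the GC tilt of each library, the median deviation from the mean of its kind of RNA in the highest minus the lowest bin, 3 points per time. The median goes from 0.07 to -0.10 at 12 h and spans less at 8 h and 16 h, and the 3 new RNA libraries at 12 h lie together near -0.2.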

How the data were processed

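Exon and intron values of new (4sU-labelled) and total RNA were analysed. TopHat2 2.0.8, TopHat and mm9 are named per the submitters' processing notes, which give no roles. The tables the authors deposited as counts hold whole numbers that had been rescaled, so they were treated as a score without a count model. The RPKM tables the authors deposited are these values times a constant per gene. Scaling used a trimmed mean of log ratios within a table (30% and 5% trimmed), and genes with at least 10 in at least 3 libraries in both exon tables were kept. A linear model with 22 group means over 66 libraries on the scale log2(scaled value + 1) was fitted in limma 3.58.1 (R 4.3.3), with a variance trend. Two-sided p-values were adjusted by Benjamini-Hochberg over all genes, and calls had an adjusted p under 0.05. Low genes have understated changes on this scale. The exon minus intron measure used a pseudocount of 2. The scripts were tested on simulated data.

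Named genes were the 8 highest and 8 lowest called interactions, up to 5 per class (only total or only new called, or opposite signs) and the strongest members of 37 gene lists. A curated symbol and a mean of 50 or more in both exon tables were required. Cad, Ccnd2, Cdk4, Cdkn1a, Myc, Ncl and Odc1 were added in every case. Members and lists were chosen with earlier results of these data known. Of the genes described singly, 21 were picked from the named genes for calls that held without any 1 library. Features and positions came from GENCODE M1 on mm9, with 11312 of 11513 genes (98.3%) matched. The GC and length adjustment, with 20 bins, and a replicate block within time were added after seeing the data.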

Additional observations from a re-analysis of the deposited data

Results flagged for a closer look

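Cpa6, a carboxypeptidase gene, was the single gene whose new minus total change differed between 8 h and 12 h by a test of that difference (2.87 on the log2 scale, limma adjusted p = 0.0413). Its values were among the lowest kept: new exons held 2.99, 0 and 0.928 at 8 h and 4.03, 5.2 and 5.1 at 12 h, and total exons held 24.7, 15.7 and 13.6 against 8.06, 3.93 and 7.94. Cpa6 was not called with a pseudocount of 5, and a minimum of 50 left it out.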

How the results depend on the processing

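The 13 genes called in each of 28 alternatives were Cdc42ep2, Cdkn3, Gla, Itpr3, Plin3, Plpp5, Pnrc2, Sept3, Smtnl2, Stab1, Trp53inp1, Trp53inp2 and Zfyve28, and none of the 57 called named genes reversed. Counts of called genes moved more. With only the libraries of each comparison in the fit, 31 genes were called at 12 h, 3 at 8 h, 14 at 16 h, 0 between 12 h and 8 h, 0 in the intron difference and 14 in exon minus intron change. A size of at least 0.5 left 96 genes at 12 h. The 10 min baseline gave 124 genes at 12 h, of which 69 were also called with the 0 min baseline. The intron difference had 49 calls with scaling by library sums, 13 with no further scaling and 612 on RPKM plus 0.1, and exon minus intron change had 254 with no further scaling. The call between 12 h and 8 h went to 0 with a minimum of 50, a pseudocount of 5, RPKM plus 0.1 and separate fits per table. Leaving out 1 library gave 61 to 316 genes at 12 h, 9 to 30 at 8 h, 13 to 57 at 16 h, 0 to 2 between 12 h and 8 h, 0 to 1 between 16 h and 12 h, 0 to 241 in the intron difference, 219 to 429 in exon minus intron change, 5382 to 5840 in new RNA and 5488 to 5822 in total RNA. The causes were not tested. Read depth is unknown, and 3 libraries per group limit the precision.

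New and total libraries of one time with the same number correlated in their deviations from the group means at 0.132 to 0.274 at 12 h and 0.0416 to 0.134 at 0 min, beside -0.184 to 0.0273 and -0.118 to -0.00432 for different numbers. Over all 11 times the same-number values were -0.0837 to 0.274, with 19 of 33 over 0.1, beside 3 of 66 for different numbers. Not every pair passed 0.1, and the labels do not say what a number shares, so the pairing is a hint from the data. Over all pairs of the 4 groups the same-number range was -0.165 to 0.274, with 6 of 12 libraries correlating best with their own number. With a replicate block within each time (chosen after seeing the data) 339 genes were called at 12 h, 164 of them among the 168, 0 between 12 h and 8 h and 344 in the intron difference. With the replicate block the calls were 258 at 12 h, 0 between 12 h and 8 h and 60 in the intron difference, and with the replicate block within each kind of RNA 324, 0 and 64. With the block and the GC and length adjustment together, 44 genes were called at 8 h, 66 at 16 h and 0 between 12 h and 8 h.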
